A study of Mus musculus and Homo sapiens with 20 samples.

Results

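The clustered protocadherin genes were taken as all protein-coding genes of the GENCODE annotations whose symbols begin with Pcdha, Pcdhb or Pcdhg (PCDHA, PCDHB or PCDHG in human). The rule gave 57 mouse and 53 human members, 110 of the 41971 protein-coding genes on the assembled chromosomes of both species, and used no measured value. In the mouse genome (mm10) 14 members formed the alpha cluster (chr18:36930184-37187661), 22 the beta cluster (chr18:37264938-37524479) and 21 the gamma cluster (chr18:37661793-37841873). In the human genome (hg38) the alpha cluster held 15 members (chr5:140786136-141012347), the beta cluster 16 (chr5:141051374-141249365) and the gamma cluster 22 (chr5:141330514-141512977). All members lie on the plus strand. The mouse annotation gives the symbol Pcdha11 to 2 genes, which are told apart here by their identifiers.

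Peaks of 2 histone modifications were listed for 20 CUT&Tag libraries in 10 groups of 2. CUT&Tag cuts and tags DNA beside an antibody bound to chromatin. H2AK119ub, ubiquitin on a lysine of histone H2A, is laid down by Polycomb repressive complex 1, and H3K27me3, a trimethylated lysine of histone H3, by Polycomb repressive complex 2. Both marks were profiled in wild-type (WT) and Tet2-/- (KO) mouse embryonic stem (mES) cells, which were kept in serum with LIF and the inhibitors CHIR99021 and PD0325901, and in WT and KO Lin-c-Kit+ haematopoietic stem and progenitor cells (HSPCs) from bone marrow of mice aged 6 to 8 weeks. For K562, an established human chronic myeloid leukaemia cell line, H2AK119ub lists came from cells given siControl, a control siRNA, or siMBD6, which targets MBD6. The labels do not give the TET2 genotype of these K562 libraries. The study's sample sheet lists siMBD6 libraries for H2AK119ub from TET2 KO K562 cells, so it is not known here whether the siMBD6 comparison was made in TET2 KO cells. Tet2 encodes a dioxygenase of methylated cytosine. The mES comparison sets a WT line against a KO line, so that line and genotype cannot be told apart. Male and female mice were both used in the study, and the sample titles give no sex. Sex and genotype therefore cannot be told apart in the HSPC comparison. Nothing in the labels states that the 2 libraries of a group came from separate cultures or animals, so the tests measure the spread between these libraries only.

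Clustered protocadherins are cell-surface adhesion proteins best known from neurons, in which each cell uses its own small set of isoforms to tell itself from its neighbours. In the alpha and gamma clusters every member has its own promoter and a large first exon that encodes the extracellular domain, and this exon is spliced to constant exons shared by the whole cluster, whereas most beta members are single-exon genes. The 5 C-type members (Pcdhac1, Pcdhac2, Pcdhgc3, Pcdhgc4 and Pcdhgc5) sit at the 3′ ends of the alpha and gamma clusters and are used more constitutively than the others, which are chosen at random. A promoter element with the core letters CGCT and binding of CTCF and cohesin are known features of the stochastically chosen promoters.

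Human promoter sequences are shown first, because the K562 peaks on start site windows were concentrated on the gamma C-type members. CGCT, searched on both strands of the 250 bases before each annotated start, occurred in 49 of 53 members and in 71.2% of the 20033 promoters of all genes. The longer run GGTGGCGCT, which holds CGCT at its end, was present before 13 of the 16 beta members, starting 84 to 16 bases before the annotated start, and before 0.554% of all promoters. CATGATGTCGCT, which also ends in CGCT, was present before 9 of the 15 alpha members and before no other gene. Both runs were picked by counting in these same windows. They are the 9-letter run found before most beta members and the 12-letter run found before most alpha members. Their shares in those clusters follow from this choice and are no independent support. The 4 members without CGCT in this window were PCDHA9, PCDHA11, PCDHB8 and PCDHGC5. A match in these letters is a description, and its absence says only that they are not in this window. An alpha member, a beta member and the 3 gamma C-type members are printed 5′ to 3′ from hg38, with CGCT and its reverse complement AGCG in capitals. The windows are chr5:140806787-140807036 for PCDHA4, chr5:141121568-141121817 for PCDHB4, chr5:141475697-141475946 for PCDHGC3, chr5:141484747-141484996 for PCDHGC4 and chr5:141488831-141489080 for PCDHGC5, all on the plus strand and with 0 bases inside an annotated exon.
PCDHA4: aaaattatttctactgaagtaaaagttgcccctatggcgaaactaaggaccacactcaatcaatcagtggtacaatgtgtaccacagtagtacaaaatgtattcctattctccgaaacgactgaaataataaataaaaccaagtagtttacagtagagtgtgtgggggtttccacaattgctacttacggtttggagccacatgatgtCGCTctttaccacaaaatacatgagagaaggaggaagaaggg
PCDHB4: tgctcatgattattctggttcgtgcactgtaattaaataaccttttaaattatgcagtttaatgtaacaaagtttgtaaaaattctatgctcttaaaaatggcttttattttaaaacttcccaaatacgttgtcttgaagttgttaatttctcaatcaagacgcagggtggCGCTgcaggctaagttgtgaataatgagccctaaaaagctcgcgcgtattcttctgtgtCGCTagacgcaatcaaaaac
PCDHGC3: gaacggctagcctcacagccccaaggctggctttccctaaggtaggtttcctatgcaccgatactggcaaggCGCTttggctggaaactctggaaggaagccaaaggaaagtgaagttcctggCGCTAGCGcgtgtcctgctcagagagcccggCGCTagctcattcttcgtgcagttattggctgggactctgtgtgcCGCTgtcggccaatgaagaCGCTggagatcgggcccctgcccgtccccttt
PCDHGC4: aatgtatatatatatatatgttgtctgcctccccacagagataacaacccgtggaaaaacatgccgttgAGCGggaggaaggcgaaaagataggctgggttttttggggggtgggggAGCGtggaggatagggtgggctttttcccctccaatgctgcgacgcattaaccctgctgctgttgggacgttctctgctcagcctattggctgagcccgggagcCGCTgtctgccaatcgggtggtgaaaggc
PCDHGC5: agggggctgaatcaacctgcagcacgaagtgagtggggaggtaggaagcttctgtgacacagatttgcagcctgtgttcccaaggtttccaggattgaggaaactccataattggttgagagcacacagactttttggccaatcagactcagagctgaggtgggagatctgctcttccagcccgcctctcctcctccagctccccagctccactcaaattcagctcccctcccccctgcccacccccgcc
These windows held 5 CpG dinucleotides before PCDHA4, 9 before PCDHB4, 14 before PCDHGC3, 11 before PCDHGC4 and 3 before PCDHGC5.

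Each list gives the position of every peak and nothing of its height, so a value here is the percent of a stretch that lies inside peaks, and the read depth of the libraries is unknown. The start site window is the annotated start of a gene with 1 kb on either side, and no 2 member windows overlap. Peaks of 501 bp were common, and a single one of them fills 25.0% of a window. The lists held 85121 to 167378 peaks in the mouse libraries and 91721 to 110860 in K562, and peaks covered between 4.75% and 10.8% of the autosomes.

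In mES cells both marks lay over nearly all members. H2AK119ub peaks touched the start site windows of 55 and 53 of the 57 members in the WT libraries and of 55 and 57 in the KO libraries. H3K27me3 peaks touched 53 and 55 in WT and 56 and 56 in KO. Over all 21938 mouse genes the share with a touched window was 66.8% to 67.8% for H2AK119ub and 36.5% to 49.4% for H3K27me3. The median window of a member was covered to between 53.0% and 56.8% by H2AK119ub and between 63.3% and 68.0% by H3K27me3, whereas the median over all genes was 36.01% to 38.5% for H2AK119ub and 0% for H3K27me3.

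The 3 clusters differed in how much of their length lay under each mark in WT mES cells. The gamma cluster was covered most by H2AK119ub, at 43.6% and 42.5% of its span in the 2 libraries. The beta cluster followed with 21.4% and 21.9%, and the alpha cluster with 15.6% and 14.7%. For H3K27me3 the beta cluster (39.7% and 44.9%) and the gamma cluster (40.8% and 41.0%) lay together, with overlapping values, and the alpha cluster (25.0% and 28.4%) was lower. Almost all H2AK119ub in the alpha and beta clusters lay under H3K27me3. Of the bases inside H2AK119ub peaks of both WT libraries, 94.7% in alpha, 99.9% in beta and 82.1% in gamma were also inside H3K27me3 peaks of both WT libraries.

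**Figure D1:**
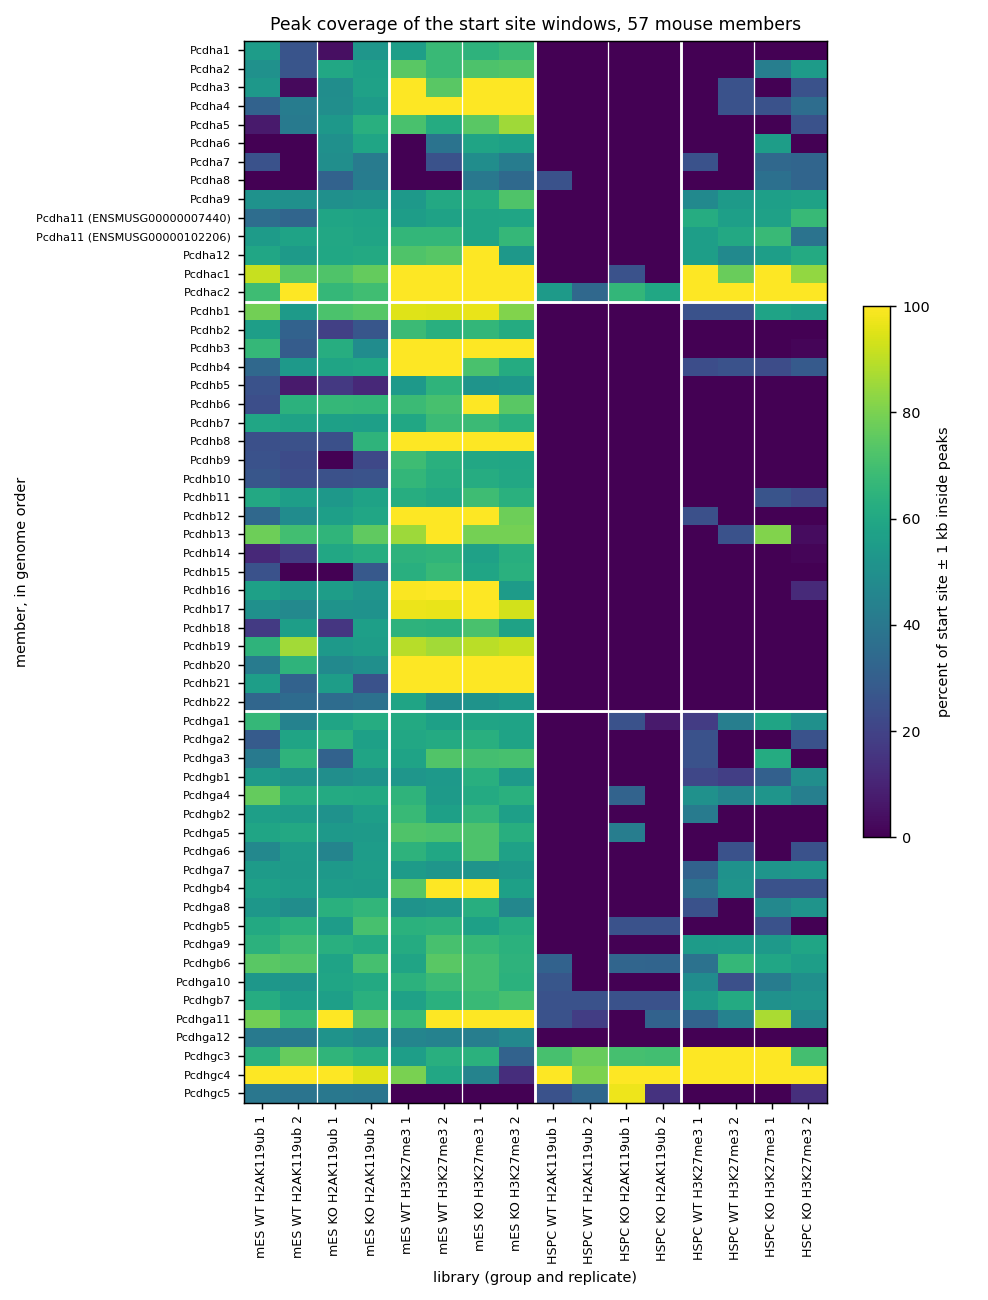
Percent of the start site window (annotated start ± 1 kb) inside peaks for each of the 57 mouse members (vertical axis, genome order) in each of the 16 mouse libraries (horizontal axis), with colour from 0 to 100%. White lines separate groups and clusters. The mES columns are filled for nearly all members, whereas the HSPC columns are filled mainly at C-type members and, for H3K27me3, at the 3′ alpha members and in gamma.

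H2AK119ub lay mostly on the large first exons. In the WT mES libraries 73.2% and 75.3% of the alpha bases under H2AK119ub lay in first exons, which made up 13.7% of the span. The corresponding shares were 91.9% and 90.6% in beta, where first exons made up 35.5%, and 67.7% and 70.8% in gamma, where they made up 30.6%. Outside the C-type members, mean H2AK119ub coverage in the 1 kb before the start was 3.03% ± 1.33 in alpha, 12.2% ± 0.154 in beta and 18.03% ± 2.12 in gamma (SD, n = 2). In the second kb after the start it was 90.3% ± 4.70, 96.1% ± 0.890 and 98.9% ± 1.57 (SD, n = 2). By its share in first exons, H3K27me3 was spread more widely than H2AK119ub in alpha and beta but not in gamma. Of its bases in the WT mES libraries, 46.7% and 42.6% in alpha, 67.6% and 64.0% in beta and 70.1% and 69.7% in gamma lay in first exons. It covered 32.4% ± 1.12, 62.5% ± 0.823 and 27.02% ± 6.32 of the 1 kb before the start, and 47.7% ± 3.29, 39.1% ± 4.31 and 47.8% ± 2.79 of the 1 kb after the first exon (SD, n = 2). The C-type members carried H2AK119ub on the upstream side too, where 55.0% ± 7.47 (SD, n = 2) of the 1 kb before the start lay in H2AK119ub peaks.

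Among the C-type members of mES cells, Pcdhac1, Pcdhac2, Pcdhgc3 and Pcdhgc4 carried both marks in all 4 libraries. The window of Pcdhac2 was covered to 68.8% and 100% by H2AK119ub and to 100% and 100% by H3K27me3 in WT. Pcdhgc4 was covered to 100% and 100% by H2AK119ub in WT and to 100% and 95.5% in KO, and its H3K27me3 values were 79.8% and 59.9%, then 44.9% and 13.1%. Pcdhgc5 stood apart from the rest, since its window held H2AK119ub (39.6% and 38.5% in WT, 40.2% and 39.2% in KO) but no H3K27me3 peak in any of the 4 mES libraries. Its first exon was likewise covered to between 91.2% and 92.5% by H2AK119ub and to 0% by H3K27me3. The window of Pcdhgc5 held 33 CpG dinucleotides, at 0.251 of the number expected from its base composition, against 0.538 to 0.820 for the other 4 C-type members. Whether base composition had a part in this difference was not tested.

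**Figure D2:**
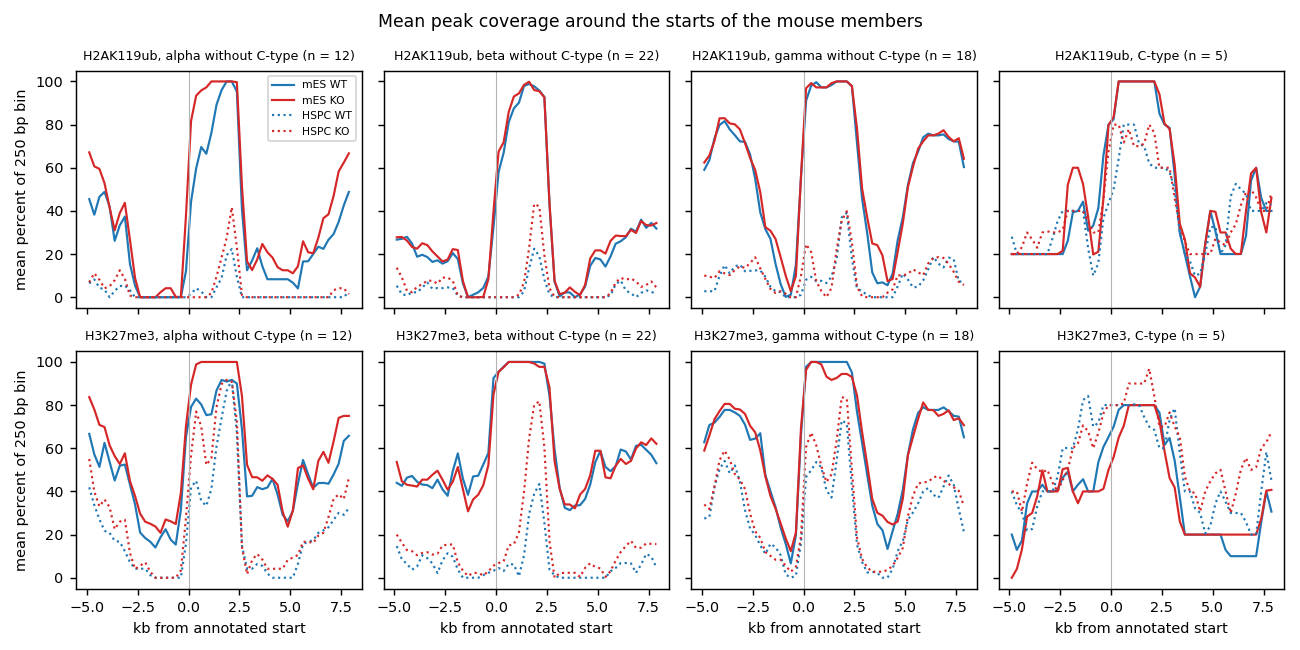
Mean percent of each 250 bp bin inside peaks (vertical axis) by distance in kb from the annotated start (horizontal axis), averaged over the members of each set and over the 2 libraries of a group. Solid lines are mES cells, dotted lines HSPCs, blue WT and red KO. In WT mES cells H2AK119ub outside the C-type members is low in the 1 kb before the start (3.03% to 18.03%) and high in the second kb after it (90.3% to 98.9%), whereas H3K27me3 already covers 27.02% to 62.5% of the 1 kb before the start. In HSPCs the members other than C-type ones have their highest bins near 2 kb after the start.

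The constant exons behaved differently in the alpha and gamma clusters. In mES cells the gamma constant exons were covered to 89.1% and 84.5% by H2AK119ub in WT and to 91.7% and 93.0% in KO. H3K27me3 covered 0% and 23.6% of them in WT and 0% in both KO libraries. The alpha constant exons had H2AK119ub in 1 of the 4 mES libraries (17.5%, in WT replicate 1), whereas H3K27me3 covered 24.4% and 21.05% of them in the WT libraries, against 32.7% and 29.1% in the KO libraries.

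HSPCs had far less of both marks on the members than mES cells. H2AK119ub touched 9 and 6 of the 57 windows in the WT libraries and 11 and 9 in the KO libraries, although 63.0% to 70.9% of all genes were touched in the same libraries. H3K27me3 touched 26 and 24 windows in WT and 30 and 35 in KO, against 58.4% to 61.6% of all genes. In WT, H2AK119ub coverage was lower in both HSPC libraries than in both mES libraries for 51 of 57 members, and 18.4% of all genes met this rule. The corresponding count in KO was 52 members, with 13.7% of all genes. For H3K27me3 it was 45 in WT, with 15% of all genes, and 44 in KO, with 11.6% of all genes. The WT count for H3K27me3 took in all 22 beta members. Higher coverage in HSPCs without overlap was found for no WT and 1 KO member for H2AK119ub (23.4% and 31% of all genes) and for 2 in WT and 2 in KO for H3K27me3 (27.7% and 35.1% of all genes). The median difference over members was -43.9 percentage points for H2AK119ub and -53.4 for H3K27me3 in WT, whereas the median over all genes was 0 for both.

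The span of every cluster was covered less in HSPCs. For H2AK119ub the WT alpha span went from 15.1% ± 0.595 in mES cells to 1.504% ± 0.4998 in HSPCs, the beta span from 21.6% ± 0.300 to 1.62% ± 1.17 and the gamma span from 43.0% ± 0.760 to 15.0% ± 2.08 (SD, n = 2). For H3K27me3 the WT alpha span went from 26.7% ± 2.41 to 13.5% ± 0.301, the beta span from 42.3% ± 3.66 to 4.02% ± 0.275 and the gamma span from 40.9% ± 0.168 to 22.3% ± 0.0212 (SD, n = 2). The beta cluster thus had the largest difference in H3K27me3, and its share in WT HSPCs was 0.585 of the share of the autosomes in peaks, against 4.89 in WT mES cells. With cell types permuted within genotype, each of the 6 differences gave p = 0.0556 in a two-sided exact permutation test, the smallest that 36 arrangements allow, and an adjusted p of 0.125 over 18 tests. This design therefore could not reach 0.05. In these bulk libraries, fewer cells that carry a mark and less of the mark per cell cannot be told apart.

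**Figure D3:**
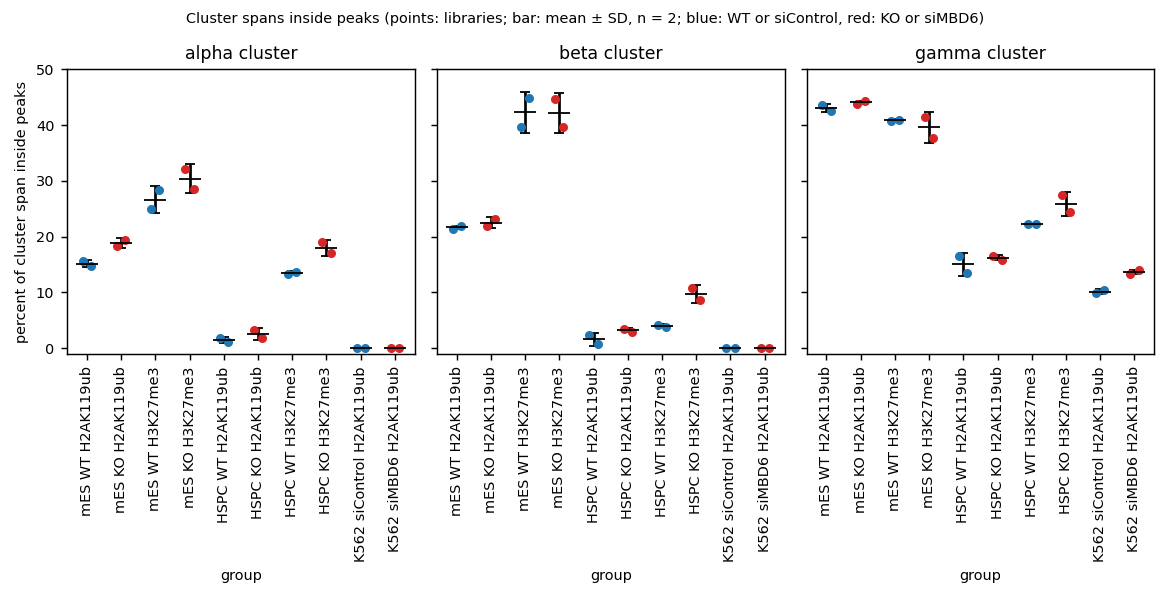
Percent of each cluster span inside peaks (vertical axis) for the 10 groups (horizontal axis). Points are libraries (blue WT or siControl, red KO or siMBD6) and bars are mean ± SD, n = 2. The mES values lie above the HSPC values of the same mark in every cluster, and alpha and beta are at 0 in K562.

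Mean coverage in HSPCs was higher on the C-type windows than on the others. In WT HSPCs the mean H2AK119ub coverage of the 5 C-type windows was 50.1% and 44.9% in the 2 libraries, against 2.56% and 0.834% for the other 52. For H3K27me3 these means were 80.0% and 75.5% against 15.8% and 15.97%. In KO the means for H3K27me3 were 80.0% and 73.6% against 24.3% and 21.9%, and 26 and 30 of the other 52 windows were touched by that mark. Pcdhgc4 was covered to 100% and 80.3% by H2AK119ub in WT and to 100% in both KO libraries, and to 100% by H3K27me3 in all 4 HSPC libraries. Pcdhac2 was covered to 100% by H3K27me3 in all 4. Pcdhac1 carried H3K27me3 (100% and 77.3% in WT, 100% and 84.0% in KO) but no H2AK119ub in WT, and it had an H2AK119ub value of 25.0% in KO replicate 1 alone. Pcdhgc5 was again the member with the least H3K27me3 of the 5, at 0% in 3 libraries and 13.6% in KO replicate 2. Its first exon, however, held H3K27me3 in 3 of the 4 HSPC libraries (39.1% and 0% in WT, 30.3% and 55.6% in KO).

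Outside the C-type members, H3K27me3 in HSPCs lay mainly on the 3′ alpha members and on gamma members. Pcdha9 was covered to 47.4% and 54.4% in WT and Pcdha12 to 55.9% and 47.6%, while Pcdha1, the first member, was at 0% in all 4 libraries. Pcdhb22, the last beta member, was at 0% for both marks in all 8 HSPC libraries. Mean H3K27me3 coverage in WT HSPCs was higher in the second kb after the start than in the first in alpha and beta. It went from 38.9% to 65.7% in alpha and from 5.06% to 19.9% in beta, but was alike in gamma (50.3% and 51.2%). The highest H3K27me3 bins of these members in WT mES cells reached 91.7% to 100%, so their positions were not compared. In WT HSPCs the bin from 2 to 2.25 kb after the start had the highest mean H3K27me3 coverage in alpha (91.7%) and beta (43.4%), and the bin from 1.75 to 2 kb in gamma (72.9%). H3K27me3 touched 46 and 41 of 57 first exons in the WT HSPC libraries, against 53.05% and 55.1% of all genes, and 53 and 50 in the KO libraries, against 57.06% and 55.9%. First exons of members are long, with a median of 2611 bp against 209 bp over all genes, so these shares are not like for like.

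**Figure D4:**
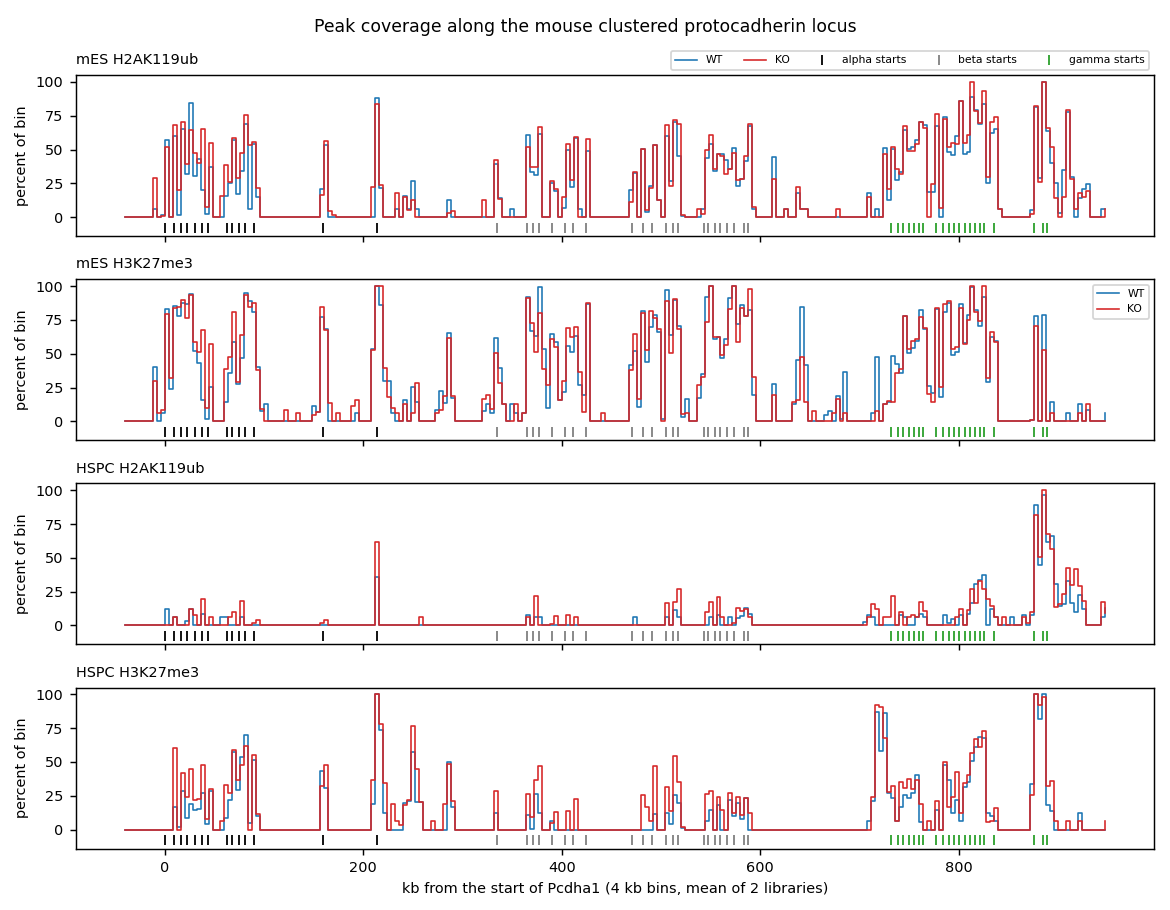
Percent of each 4 kb bin inside peaks (vertical axis) by distance in kb from the start of Pcdha1 (horizontal axis), as the mean of 2 libraries, with blue for WT and red for KO. Ticks mark the starts of alpha (black), beta (grey) and gamma (green) members. In HSPCs the tall H2AK119ub bins stand at the gamma C-type end, and H3K27me3 also stands at Pcdhac2 and ahead of the first gamma member.

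Tet2 loss was next compared within each cell type. In mES cells H2AK119ub covered more of each cluster in both KO libraries than in both WT libraries. The alpha span went from 15.6% and 14.7% to 18.3% and 19.4%, a difference of 3.72 percentage points, while the beta difference was 0.874 and the gamma difference 1.04. The alpha span also had more H3K27me3, at 25.0% and 28.4% in WT and 32.2% and 28.5% in KO, a difference of 3.71. The values of beta (difference -0.138) and gamma (difference -1.27) overlapped between genotypes. A two-sided exact permutation test over 6 assignments of 4 libraries cannot give less than p = 0.333, which each of the 4 differences without overlap reached (adjusted p = 0.556 over 15 tests).

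Among the members in mES cells, H2AK119ub on the window was higher without overlap in KO for 18 of 57, against 10.2% of all genes, and lower for 10, against 8.91%. Of the 14 alpha members 9 were higher and 0 lower, of the 22 beta members 6 were higher and 4 lower, and of the 21 gamma members 3 were higher and 6 lower. For H3K27me3, 11 members were higher, against 1.9% of all genes, and 8 lower, against 16%. The 11 comprised 6 alpha, 3 beta and 2 gamma members. On first exons, H2AK119ub was higher for 11 members, against 3.26% of all genes, and lower for 1, against 2.85%, and H3K27me3 was higher for 6, against 0.907%, and lower for 3, against 8.36%. The first exon shares over all genes are for much shorter exons (median 209 bp against 2611 bp) and are no like-for-like background. With mES WT H2AK119ub replicate 2 or KO replicate 2 left out, 22 members were lower for H2AK119ub, against 17.8% or 16.3% of all genes. For H3K27me3, leaving out KO replicate 2 or WT replicate 2 gave 20 or 17 higher members, against 6.51% or 4.89% of all genes. Leaving out KO replicate 1, WT replicate 1 or WT replicate 2 gave 23, 13 or 16 lower ones, against 25.2%, 24.5% or 19.8%.

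Of the 5 members with the largest H2AK119ub difference toward KO in mES cells, 4 were neighbours in the alpha cluster. Pcdha6 had no H2AK119ub on its window in either WT library and 50.3% and 58.8% in the KO libraries. Pcdha8 went from 0% in both WT libraries to 31.5% and 42.2%. Pcdha7 went from 25.0% and 0% to 49.3% and 41.5%, and Pcdha5 from 7.25% and 41.1% to 53.5% and 62.9%. The groups did not overlap for any of these 4, each of which encodes an alpha isoform with its own ectodomain. The 5 members with the largest H3K27me3 difference toward KO also included these 4. Pcdha6 had 0% and 38.2% in WT and 58.5% and 56.9% in KO. Pcdha8 had 0% in both WT libraries and 40.2% and 34.1% in KO. For Pcdha7 the WT libraries had 0% and 25.0%, and the KO libraries 49.0% and 41.9%.

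The first exons of Pcdha6, Pcdha7 and Pcdha8, a group chosen after their values were seen, gave the same picture. Their mean H2AK119ub coverage was 48.4% and 48.7% in WT and 94.5% and 95.6% in KO, and their mean H3K27me3 coverage was 30.2% and 45.1% in the WT libraries, against 97.1% and 93.5% in the KO libraries. Over the other 11 alpha first exons the mean per mES library was between 89.5% and 99.3% for H2AK119ub and between 99.7% and 100% for H3K27me3. Parts of these exons occur in other members. Of the 50-base words in the first exon, 26.6% in Pcdha6, 23.6% in Pcdha7 and 17.6% in Pcdha8 occurred elsewhere in the locus, against an alpha median of 14.8%. The Pcdha11 gene ENSMUSG00000102206 lay above Pcdha8, at 18.4%, and its first exon was covered to 100% by both marks in every mES library. The alignment reported the best hit of reads that fit several places. The part of shared sequence in these differences was not tested.

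**Figure D5:**
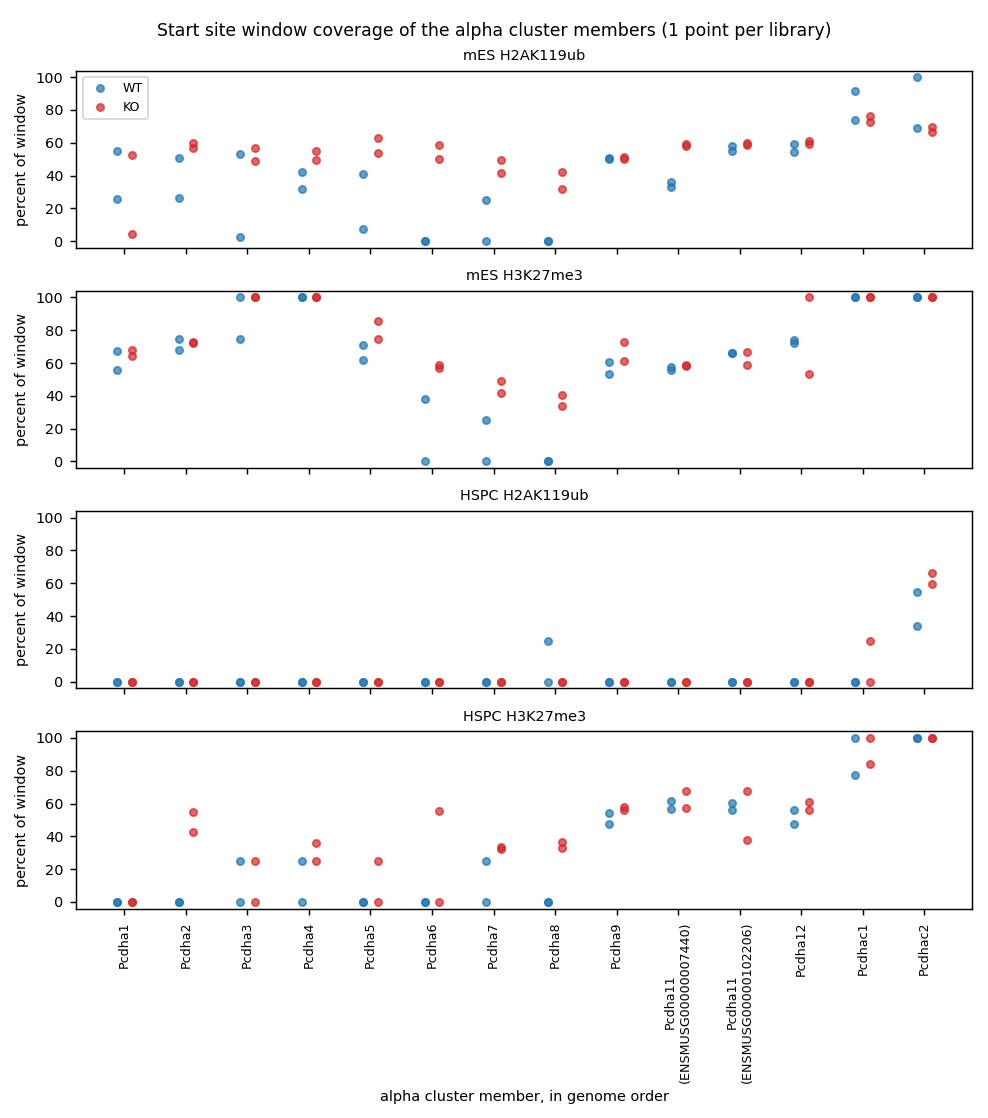
Percent of the start site window inside peaks (vertical axis) for the 14 alpha members in genome order (horizontal axis), with 1 point per library (blue WT, red KO) and a panel for each mark and cell type. In mES cells the WT points of Pcdha6, Pcdha7 and Pcdha8 lie at or below 38.2% and below the KO points for both marks.

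Beta members differed in both directions in mES cells. Pcdhb14 went from 11.4% and 17.5% to 60.0% and 62.4% for H2AK119ub, and Pcdhb6 from 68.3% and 70.8% to 100% and 74.3% for H3K27me3. Pcdhb2 had less H2AK119ub in KO, with 56.0% and 31.6% in WT and 19.1% and 26.6% in KO. Pcdhb19 was also lower, at 64.9% and 86.0% against 54.0% and 55.5%. Pcdhb9 was lower for both marks, with a difference of -13.1 for H2AK119ub and -6.62 for H3K27me3. Pcdhb4 had H3K27me3 over 100% of its window in both WT libraries and over 71.2% and 61.5% in KO. The differences of Pcdhb13 (-13.6) and Pcdhb5 (-6.92) were smaller.

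Gamma members also differed in both directions in mES cells. The 3 with more H2AK119ub in KO, named after their values were seen, were Pcdhga8 (a difference of 13.6 percentage points), Pcdhga12 (8.80) and Pcdhga10 (7.40). Pcdhgc4 had the largest H3K27me3 difference toward WT of all members, from 79.8% and 59.9% to 44.9% and 13.1%. H2AK119ub was lower on Pcdhgb6, which went from 74.4% and 72.9% to 57.9% and 70.4%, and on Pcdhga4, which went from 76.4% and 62.2% to 61.2% and 60.9%. Pcdhga1, the first gamma member, had overlapping H3K27me3 values on its window (60.7% and 57.02% in WT, 58.6% and 57.8% in KO). Its first exon nevertheless went from 90.4% and 89.5% to 36.7% and 37.1%.

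In HSPCs, H3K27me3 covered more of every cluster in KO. The alpha span went from 13.3% and 13.7% in WT to 19.01% and 17.0%. The beta span went from 4.22% and 3.83% to 10.8% and 8.62%, the largest of the 3 differences at 5.71 percentage points, and the gamma span from 22.3% in both to 27.4% and 24.4%. None of the groups overlapped, and each difference gave p = 0.333 in the exact permutation test (adjusted p = 0.556). Divided by the share of the autosomes inside peaks, the WT and KO means were 1.97 and 2.54 in alpha, 0.585 and 1.37 in beta and 3.24 and 3.65 in gamma. Over all assembled chromosomes, H3K27me3 peaks covered 165 and 167 Mb in WT HSPCs and 201 and 185 Mb in KO. Of the autosomes they covered 6.83% and 6.94%, then 7.37% and 6.81%, so the lists also differed outside the autosomes. The shares over all genes include genes on the sex chromosomes. H2AK119ub was higher without overlap in beta (2.45% and 0.788% in WT, 3.51% and 2.95% in KO), and its values overlapped in alpha (difference 0.986) and gamma (difference 1.18). The gamma difference was -0.290 with WT replicate 2 left out.

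On the windows in HSPCs, 12 members had more H3K27me3 in KO, against 9.68% of all genes, and 2 had less, against 8.79%. Pcdha2 had none in WT and 42.8% and 54.9% in KO, and Pcdha8 none in WT and 36.7% and 32.6% in KO. Pcdhga8 went from 25.0% and 0% to 46.8% and 51.6%. Pcdhb1, the first beta member, went from 25.0% in both WT libraries to 58.1% and 55.7%. Pcdhga11 went from 31.8% and 44.3% to 87.2% and 47.8%. The members with less were Pcdhgb4 (38.0% and 51.9% in WT, 25.0% in both KO libraries) and Pcdhgb7 (54.4% and 61.2%, then 50.6% and 51.9%). Without KO replicate 1 the counts were 22 higher and 5 lower, against 16.9% and 15.7% of all genes. Without KO replicate 2 or WT replicate 2 the lower count was 4, against 14.1% or 16.6%.

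Higher H3K27me3 in KO HSPCs was found on more first exons than windows. H3K27me3 was higher on 25 of 57 first exons in KO HSPCs, against 4.85% of all genes, and lower on 1, against 2.46%. The shares over all genes are for much shorter exons (medians above) and are no like-for-like background. With 2 kb on either side of the start, a length that is the same for all genes, 25 members were higher, against 10.7% of all genes, and 2 lower, against 12.2% (43.9% and 3.51% of members). The beta cluster contributed 17 of the 25 first exons. Pcdhb10 went from 0% in both WT libraries to 48.2% and 34.3%, Pcdhb4 from 13.5% in both to 50.8% and 50.0%, and Pcdhb11 from 21.1% and 0% to 49.4% and 47.2%. These 3 beta members, which encode isoforms without the shared constant exons, were chosen after their values were seen.

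H2AK119ub on the windows differed for few members in HSPCs, since 43 of 57 were at 0% in all 4 libraries. It was higher for 4, against 18.8% of all genes, and lower for 1, against 5.05%. Pcdhac2 went from 54.5% and 34.0% to 66.4% and 59.4%, and Pcdhgb6 from 31.3% and 0% to 32.4% and 32.2%. Pcdhgb5 had none in WT and 25.0% in both KO libraries, the width of a single short peak, and Pcdhga1 had none in WT and 25.0% and 7.30% in KO. Pcdhgc3 was lower, at 70.9% and 76.9% in WT and 70.5% and 69.8% in KO. On first exons 7 members were higher, against 6.29% of all genes, and 3 lower, against 0.843%. Here too the shares over all genes are for much shorter exons and are not like for like. Without KO replicate 2 the window counts were 8 higher and 2 lower, against 28.1% and 11.4% of all genes. Without KO replicate 1 or WT replicate 2 the lower count was 2 or 3, against 11.4% or 15.2%.

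The effect of Tet2 loss was compared between the cell types directly. Over both, the KO minus WT difference in the alpha span was 2.35 percentage points for H2AK119ub and 4.09 for H3K27me3, with p = 0.111 and p = 0.0556 in exact permutation tests within cell type (adjusted p = 0.222 and 0.125). For the H3K27me3 of beta the effect in HSPCs exceeded that in mES cells by 5.85 points (exact permutation p = 0.222, adjusted p = 0.333), and for gamma by 4.903 points (exact permutation p = 0.167, adjusted p = 0.273). Neither difference between the cell types passed the test, which could not give less than 0.0556.

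In K562 cells the alpha and beta clusters had no H2AK119ub peak in any library. Of the 53 windows 5 and 4 were touched in the siControl libraries and 3 and 3 in the siMBD6 libraries, against 33.8% to 42.0% of all genes. The 3 members touched in every library were PCDHGC3, PCDHGC4 and PCDHGC5, whose promoter sequences are printed above. PCDHGA5 was touched in siControl replicate 2 alone, and PCDHGA7 and PCDHGB5 in siControl replicate 1 alone. Neither alpha C-type member, PCDHAC1 or PCDHAC2, was touched.

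PCDHGC5 and PCDHGC3 were higher without overlap after siMBD6, 2 of 53 members against 13.4% of all genes, and 0 were lower, against 2.2%. With siControl replicate 1 or siControl replicate 2 left out, 2 members were lower, against 8.66% or 7.37% of all genes. PCDHGC5 was covered to 70.1% and 68.5% in siControl and to 100% in both siMBD6 libraries, and PCDHGC3 to 24.6% and 23.1% and then 33.3% and 55.8%. First exons gave 2 higher members, PCDHGA8 and PCDHGA9, and 0 lower, against 5.24% and 0.938% of all genes. Those shares are for much shorter exons (median 191 bp against 2601 bp) and are not like for like. The first exon of PCDHGC3 overlapped between the groups, and that of PCDHGC5 was covered to 100% in every library. On the windows PCDHGC4 overlapped (25.0% and 47.8%, then 45.3% and 43.98%). The gamma span went from 9.85% and 10.4% to 13.4% and 14.0%, a difference of 3.53 percentage points with no overlap (exact permutation p = 0.333, adjusted p = 0.556). The autosomes moved alongside, with 4.75% in both siControl libraries and 6.37% and 6.82% after siMBD6 inside peaks, and the gamma share divided by the autosomal share was 2.13 and 2.07. The gamma constant exons were covered to 27.1% and 35.1% in siControl and to 79.1% and 77.0% after siMBD6.

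The cell type markers were read from the same windows. The 7 mES cell markers had a median H3K27me3 coverage of 0% in each mES library and 100% in each HSPC library. Pou5f1 and Nanog, pluripotency factors, and Tdgf1 were at 0% in the 4 mES libraries and at 100% in the 4 HSPC libraries. Dppa3 went against this order (100% in every mES library, then 0% or 35.1%), Esrrb was covered in both cell types (85.1% to 100%, then 100%), and Zfp42 was at 0% in HSPCs. Mpo, a myeloid enzyme, had 67.6% to 73.7% in mES cells and 0% in HSPCs. The 8 HSPC markers had a median H3K27me3 coverage of 80.3% to 85.8% in mES cells, against 17.1% to 39.6% in HSPCs. Kit, the receptor used for the sort, had 38.3% to 66.3% H3K27me3 in HSPCs and 0% to 44.5% in mES cells, the opposite order to that list. Gata2 and Tal1 were at 100% H3K27me3, and Ptprc at 0%, in every library of both cell types. For H2AK119ub the mES cell markers had the reverse order. Peaks touched all 7 in every mES library, with medians from 47.8% to 74.9%. In HSPCs 3 to 6 were touched, and medians lay between 0% and 33.0%. Pou5f1 was an exception, at 72.8% to 87.6% in mES libraries and 100% in every HSPC library. H2AK119ub touched 7 of the 8 HSPC markers in every library. Their HSPC medians (74.4% to 84.0%) lay above their mES medians (65.2% to 73.0%). This mark thus also lay on a cell type's own markers. In K562 cells 3 or 4 of 7 markers had an H2AK119ub peak, against 33.8% to 42.0% of all genes.

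Other gene lists around the clusters were read in the same way. All 12 non-clustered protocadherins, single-gene relatives of the family, carried both marks in every mES library and H3K27me3 in every HSPC library, and 5 to 8 of them carried H2AK119ub in HSPCs. In KO against WT mES cells, 2 of the 12 were higher and 0 lower for H2AK119ub, where 10.2% and 8.91% of all genes were. For H3K27me3 these counts were 0 and 2, beside 1.9% and 16% of all genes, so the lower share was near that of the genome. In HSPCs 3 were higher and 0 lower for each mark, beside 18.8% and 5.05% of all genes for H2AK119ub and 9.68% and 8.79% for H3K27me3. Of 10 classical cadherins, 9 or 10 carried each mark in every mES library, and 5 to 8 carried H2AK119ub in HSPCs. Of 14 regulators of promoter choice, H2AK119ub lay on 7 or 8 in mES cells and on 8 to 12 in HSPCs. The 10 neighbouring genes had H2AK119ub on 8 or 9 windows in mES cells and on 8 to 10 in HSPCs. Over all genes H2AK119ub touched 66.8% to 67.8% of windows in mES cells and 63.0% to 70.9% in HSPCs. H3K27me3 touched 36.5% to 49.4% and 58.4% to 61.6%. H3K27me3 lay on 3 of the 14 regulators in every mES library and on 6 to 8 in HSPCs. With only 14 genes listed, differences of the regulators from the shares of all genes were not tested. Of the 10 neighbouring genes, 5 (Hars, Hars2, Zmat2, Fchsd1 and Arap3) had more H2AK119ub in KO mES cells, against 10.2% of all genes. Lower coverage was found for 0, against 8.91%. Hars and Hars2 had the same values in every mES library and are not separate cases. Differences were small for Fchsd1 (67.8% and 63.4%, then 69.5% and 69.1%) and Arap3 (91.5% and 92.5%, then 94.6% and 94.2%). Zmat2 had 0% H2AK119ub in both WT mES libraries and 25.0% in both KO libraries, and Diaph1, an actin regulator, had 25.0% in all 4. Taf7, a subunit of the general transcription factor TFIID that lies between beta and gamma, had no H2AK119ub in mES cells, and Slc25a2, a mitochondrial carrier, had 25.0% to 38.5%.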

How the data were processed

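CUT&Tag peak lists of 20 libraries were used as deposited, 1 list per library. According to the study's methods, reads were trimmed by the authors (Trimmomatic 0.39) and aligned to mm10 or hg38 together with a Drosophila spike-in (bowtie2 2.4.1, which reported the best alignment of reads with several). Duplicates were then removed (Picard), and broad peaks were called with MACS2. The submitters' notes also name HOMER 4.9. The deposited files hold the position of each peak and no count, score or coverage, so read depth and counting error are unknown, and a longer list may reflect depth.

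Protein-coding genes came from GENCODE M21 (mouse) and 44 (human). The percent of each start site window (1 kb on either side), first exon and cluster span inside peaks was computed with numpy 2.4.6, pandas 2.3.3 and Python 3.11.15, checked against bedtools 2.31.1 and tested on simulated data. A member or gene was counted as higher or lower when all libraries of a group lay beyond all libraries of the other, with no test, beside the same count over all genes. Spans were compared with two-sided exact permutation tests and Benjamini-Hochberg adjustment. Human promoter sequences were read from hg38. The members and lists were chosen with earlier results of these data known. Named were the C-type members, the first and last member of each cluster, and up to 5 members per comparison and direction with the largest difference without overlap. Alternatives were peaks of at least 1 kb, peaks joined within 1 kb, equal peak numbers, division by the autosomal percent, windows of 2 kb on either side, first exons, leaving out each library, pairing by replicate number and, chosen after seeing the data, the start of the longest coding transcript and a crossed pairing.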

Additional observations from a re-analysis of the deposited data

Results flagged for a closer look

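Members Pcdhgb6 and Pcdhgb7 each differed between KO and WT in opposite directions in the 2 cell types, with no overlap of the libraries in either. H2AK119ub on the window of Pcdhgb6 differed by -9.52 percentage points (KO minus WT) in mES cells and by 16.7 in HSPCs. The HSPC values of Pcdhgb6 were 31.3% and 0% in WT and 32.4% and 32.2% in KO, so that difference rests on 1 WT library. H3K27me3 on Pcdhgb7 differed by 8.70 in mES cells and by -6.50 in HSPCs. The difference between the cell types was not tested for these members.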

How the results depend on the processing

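The lists hold positions alone and each group has 2 libraries, so depth is unknown and no test could pass 0.05. Of all values recomputed, 432 kept their direction or stayed within 1.5 times, 64 counts moved further and 27 differences reversed, and the cause was not tested. Counting first exons in place of windows gave 11 higher and 1 lower member for H2AK119ub and 6 and 3 for H3K27me3 in mES cells, and 7 and 3 for H2AK119ub and 25 and 1 for H3K27me3 in HSPCs. Windows of 2 kb on either side gave 6 lower members for H2AK119ub in mES cells, 7 higher and 4 lower for H2AK119ub in HSPCs and 25 higher for H3K27me3 in HSPCs. Joined peaks gave 7 higher and 5 lower for H3K27me3 in mES cells and 1 higher in K562. Peaks of at least 1 kb gave 1 higher for H2AK119ub and 1 lower for H3K27me3 in HSPCs. Over all genes the same rules gave, in that order, 11.5% for the wider window in mES cells and 20.6%, 6.61% and 10.7% in HSPCs, 1.85%, 14.5% and 12.05% for joined peaks, and 13.4% and 4.905% for peaks of at least 1 kb. The H3K27me3 difference in mES cells became 0.900 (peaks of at least 1 kb), 0.0555 (equal peak number) and 0.844 (divided by the autosomal percent) in beta and 0.641 (divided) in gamma. The gamma H2AK119ub difference became -0.465 (peaks of at least 1 kb) and -0.0463 (divided) in HSPCs and -0.0624 (divided) in K562. The difference between the KO effects in the 2 cell types became -1.39 in beta for H2AK119ub (peaks of at least 1 kb), and in gamma -2.11 (peaks of at least 1 kb), -1.51 (joined), -1.02 (equal peak number) and -0.329 (divided). For H3K27me3 it became -0.477 in alpha, -0.0603 in beta and -0.228 in gamma (all divided).

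Windows covered to at least 50% numbered 34 and 32 in the WT mES H2AK119ub libraries, 3, 2, 4 and 3 for H2AK119ub and 10, 12, 19 and 15 for H3K27me3 in HSPCs (WT, then KO), and 1, 1 and 1 in both siControl libraries and siMBD6 replicate 1. Peaks of at least 1 kb touched 5, 3, 4 and 4 windows for H2AK119ub in HSPCs, 14 for H3K27me3 in WT HSPC replicate 1, and 2 and 2 in siControl. First exons touched numbered 28, 16, 37 and 26 for H2AK119ub and 46, 41 and 53 (WT, then KO replicate 1) for H3K27me3 in HSPCs, 9 in siControl replicate 2, and 10 and 10 after siMBD6.

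Leaving out each library in turn gave 14 to 22 lower members for H2AK119ub in mES cells, 14 to 20 higher and 12 to 23 lower for H3K27me3 in mES cells, 4 to 8 higher and 1 to 3 lower for H2AK119ub in HSPCs, 15 to 22 higher and 3 to 5 lower for H3K27me3 in HSPCs, and 0 to 2 lower in K562. The corresponding shares of all genes were 16.3% to 18.6%, 2.71% to 6.51% and 18.04% to 25.2%, 26.99% to 35.5% and 11.1% to 15.2%, 15.02% to 17.8% and 14.1% to 19.5%, and 4.58% to 8.66%. Span differences ranged from -2.72 to 2.45 in beta and -3.21 to 0.660 in gamma for H3K27me3 in mES cells, where leaving out KO replicate 2 reversed both and WT replicate 2 reversed beta, and from -0.290 to 2.65 in gamma for H2AK119ub in HSPCs. The difference between the KO effects ranged from -0.0888 to 1.57 in beta and -1.33 to 1.61 in gamma for H2AK119ub, reversed without HSPC WT replicate 2 in both and without mES WT replicate 1, mES KO replicate 1 or HSPC KO replicate 1 in gamma, and from -1.09 to 2.60 in alpha for H3K27me3, reversed without mES WT replicate 2, mES KO replicate 2 or HSPC KO replicate 1.

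Same-numbered libraries did not deviate together (Pearson's r across genes from -0.135 to 0.0305). This cannot tell whether they were prepared together, which the titles do not state. With the replicate block, 21 members were higher and 14 lower for H2AK119ub and 12 and 12 for H3K27me3 in mES cells, against 14.0% and 12.4% and 2.43% and 17.4% of all genes, and the smallest p of a paired test was 0.5. The crossed pairing for H3K27me3 in mES cells, chosen after seeing the data, gave 11 higher and 9 lower, against 2.79% and 18.7%.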

Other observations

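The 20 kb before the first gamma member, a stretch chosen after its values were seen, ran against the clusters. In HSPCs H3K27me3 peaks covered 50.6% and 59.4% of it in WT and 65.4% and 52.0% in KO. In mES cells they covered 12.6% and 15.9% in WT and 6.79% and 3.52% in KO. H2AK119ub covered 2.51% and 0% in WT HSPCs and 7.52% and 8.98% in KO HSPCs.

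Less of the H3K27me3 lay under H2AK119ub in HSPCs than in mES cells. In WT mES cells 52.6% of the alpha bases inside H3K27me3 peaks of both libraries were inside H2AK119ub peaks of both libraries, with 49.9% in beta and 87.7% in gamma. In WT HSPCs the shares were 3.38%, 6.92% and 37.1%, and in KO HSPCs 9.89%, 20.6% and 38.7%. Of the bases under H2AK119ub, most lay under H3K27me3 in HSPCs too, with 71.5%, 100% and 72.01% in WT and 100%, 98.2% and 76.7% in KO for alpha, beta and gamma. These HSPC bases were few, at 1.34, 0.491 and 15.8 kb in WT and 3.69, 4.19 and 18.4 kb in KO. In WT mES cells they came to 33.4, 49.6 and 72.5 kb.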
